A study of Mus musculus with 8 samples.

Results

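A short hairpin RNA and floxed alleles, as means of disabling p53 in mouse osteosarcoma, were compared within a single Rb genotype. Of 8 primary tumours arrayed, the 6 labelled Rbfl/+ were used, that is every tumour with 1 floxed Rb allele, and both Rb+/+ tumours were set aside. In the 3 shRNA OS tumours a transgene made a short hairpin RNA against p53 (genotype P53.1224). In the 3 Cre:lox OS tumours both p53 alleles were floxed (P53fl/fl). All 6 came from C57Bl6 mice, and in each model 2 tumours grew in the tibia and 1 in the humerus, so that tumour site was balanced. Of the Rb+/+ tumours, that of the shRNA OS model (P53.1224) was tibial and that of the Cre:lox OS model (P53fl/fl) scapular. From what is known of these models, both transgenes act in the osteoblast lineage through the Sp7 (Osx1) promoter, which the labels do not name. The age of the mice is not given in the sources used here.

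Osteosarcoma is a cancer of the cells that lay down bone. The transcription factor p53 halts or kills damaged cells, a hairpin lowers its messenger RNA while leaving the gene in place, and Cre recombinase cuts out the floxed part of the gene for good. The retinoblastoma protein, encoded by Rb1, restrains entry into the cell cycle, and loss of Rb together with p53 is a known route to osteosarcoma. The comparison asks whether tumours arising by the hairpin and by deletion express different genes when the Rb genotype is the same.

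Messenger RNA was read as log2 expression (RMA) for 19938 genes on 1 array per tumour. The 6 array medians lay between 7.13 and 7.20, and the interquartile range between 2.79 and 3.19. Arrays of the same model correlated at 0.964 to 0.980 and arrays of different models at 0.961 to 0.974. The shRNA OS Rb+/+ array stood apart: its correlation with the 6 Rbfl/+ arrays averaged 0.943, and it had an interquartile range of 2.59. Bone genes were bright in all 6 tumours: Col1a1 lay between 13.00 and 13.55, Ibsp between 12.91 and 13.46 and Alpl between 12.18 and 13.19. The p53 transcript itself is not analysed here. Rb1 read 9.40, 9.17 and 9.15 in shRNA OS against 9.31, 9.10 and 9.71 in Cre:lox OS, and the groups overlapped (difference -0.14, SE 0.20, limma adjusted p 0.980). The array reads the gene as a whole and does not tell the floxed allele from the intact one. Mdm2, a target of p53 that marks it for destruction, was 9.63, 8.93 and 8.91 against 8.59, 8.80 and 8.75. Its groups did not overlap, and the difference of 0.44 did not pass the test (adjusted p 0.664).

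Between the models 7 genes rose and 2 fell in shRNA OS (limma, adjusted p under 0.05). These are 0.0351% and 0.01% of the genes tested, or 0.0451% together. Every difference below is shRNA OS minus Cre:lox OS on the log2 scale, and tumours are listed as tibia, tibia, humerus for shRNA OS and humerus, tibia, tibia for Cre:lox OS. Several of the lower means lay below the array medians, so no linear fold is given. At an unadjusted p under 0.05 there were 1737 genes (8.71%), 927 higher (4.65%) and 810 lower (4.06%). In 2519 genes (12.6%) all 3 tumours of one model lay above all 3 of the other, 1321 higher in shRNA OS (6.63%) and 1198 lower (6.01%). The mean was higher in shRNA OS for 50.2% of all genes and lower for 49.8%, and the median difference was 0.001. The p-values measure the spread between tumours.

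Among the genes that rose, 2 encode secreted or membrane signals. Dkk1, a secreted inhibitor of Wnt signalling made by osteocytes, read 9.87, 10.70 and 10.85 in shRNA OS and 6.72, 7.27 and 7.74 in Cre:lox OS. The lowest shRNA OS tumour thus stood above the highest Cre:lox OS tumour by more than either group's spread, and Dkk1 rose by 3.23 (SE 0.33, adjusted p 0.0380). Sema5a, a transmembrane semaphorin that guides cell and axon growth, read 11.78, 11.35 and 12.02 against 9.70, 8.94 and 9.45. It was among the brighter genes in both models, and it rose by 2.35 (SE 0.25, adjusted p 0.0388).

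The largest rise was that of Gdpd3, a lysophospholipase of the glycerophosphodiester phosphodiesterase family. It read 9.77, 10.40 and 11.03 in shRNA OS, while the Cre:lox OS tumours lay together at 6.34, 6.31 and 6.55. Gdpd3 rose by 4.00 (SE 0.30, adjusted p 0.0117). The other 4 genes that rose act in or near the nucleus. Xlr, of an X-linked multigene family, read 8.94, 9.16 and 8.96 against 6.68, 6.48 and 6.18, and rose by 2.58 (SE 0.18, adjusted p 0.0117). As its family members are alike in sequence, which copy was read is uncertain. Xlr was level across the shRNA OS tumours although the first of them differed in sex-linked genes, with the Y-linked Eif2s3y at 6.65 against 3.46 to 3.69 in the other 5 and Xist at 5.95 against 11.80 to 12.85.

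Satb1, a chromatin organiser best known from T cells, read 9.26, 9.75 and 9.62 against 7.32, 6.71 and 7.20 and rose by 2.47 (SE 0.22, adjusted p 0.0245). Of 17 T and NK cell markers measured, 9 had higher and 8 lower means, and none separated the groups. Their mean level ran from 6.05 to 6.60 in shRNA OS and from 6.04 to 6.53 in Cre:lox OS. These levels lie below the array medians, where differences are the least certain, and the part of T cells in the Satb1 value was not tested. Pax6, which directs development of the eye and brain, read 7.88, 8.21 and 8.16 against 6.39, 6.50 and 6.38 and rose by 1.66 (SE 0.16, adjusted p 0.0287). Its Cre:lox OS values spanned little more than 0.1. Cenpv, a centromere protein needed for chromosome alignment, read 10.13, 9.95 and 10.04 against 8.76, 8.49 and 8.48 and rose by 1.46 (SE 0.16, adjusted p 0.0388).

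The 2 genes that fell are an enzyme and a cytoskeletal protein. Adh7, an alcohol dehydrogenase that oxidises retinol, read 6.92, 6.57 and 6.27 in shRNA OS and 8.77, 8.64 and 8.78 in Cre:lox OS, and fell by 2.14 (SE 0.19, adjusted p 0.0245). Map1a, which binds microtubules chiefly in neurons, read 6.65, 6.51 and 6.60 against 7.94, 8.07 and 8.19, and fell by 1.48 (SE 0.15, adjusted p 0.0345). As the groups of all 9 genes did not overlap, the tibial and the humeral differences of these same tumours had to share a direction. Among the tibial tumours Gdpd3 differed by 3.65 and Dkk1 by 2.77, and between the humeral tumours by 4.69 and 4.14. With site as a covariate the same 9 passed, among 19 in all (0.0953%).

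**Figure D1:**
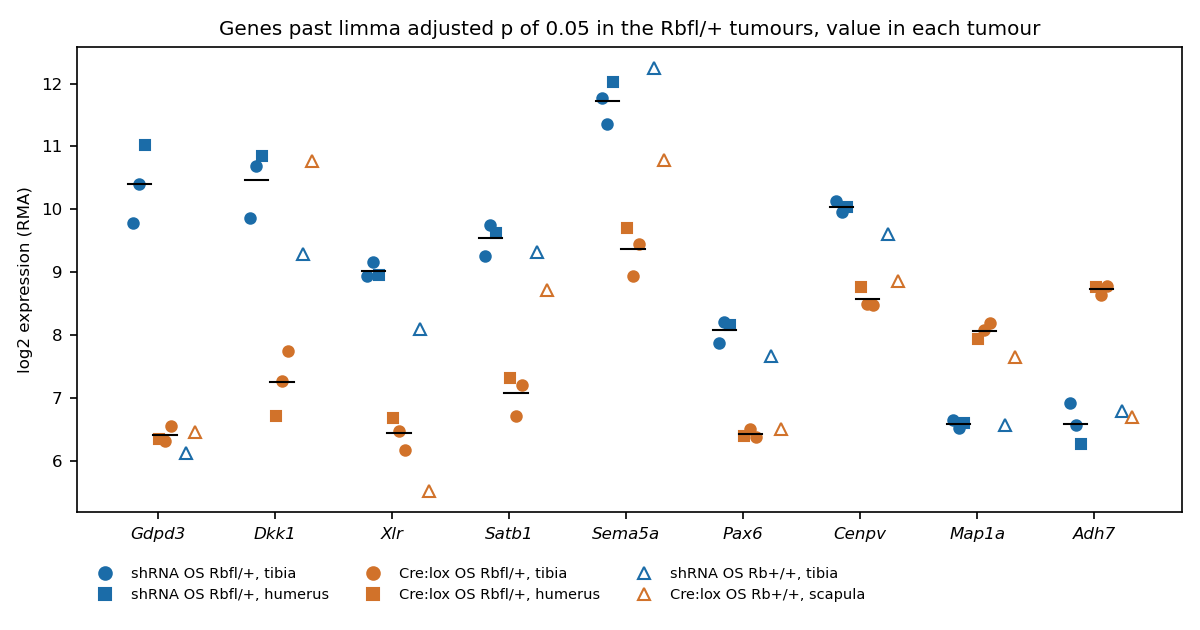
Log2 expression (RMA, vertical axis) of the 9 genes that passed limma's adjusted p of 0.05, in each tumour. Filled points are Rbfl/+ tumours (circles tibia, squares humerus), black bars the mean of 3, and open triangles the Rb+/+ tumours; for all 9 genes the filled blue and orange points do not overlap, and for Gdpd3, Dkk1 and Adh7 the open triangles lie in the opposite order.

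The calls varied with the tumours included. Without shRNA OS replicate 2 or without Cre:lox OS replicate 2 no gene passed (limma), while 1229 and 1565 genes had an unadjusted p under 0.05. Without shRNA OS replicate 3 only Gdpd3 passed (adjusted p 0.0181), and without shRNA OS replicate 1 the count was 40, with 8 of the 9 among them and Cenpv at 0.0527. Without Cre:lox OS replicate 1 the count was 8 (3 of the 9: Gdpd3, Satb1 and Xlr), and without Cre:lox OS replicate 3 it was 6 (2 of the 9: Gdpd3 and Xlr). The sizes moved less. Gdpd3 stayed between 3.68 and 4.31, Dkk1 between 2.96 and 3.53, and Xlr between 2.44 and 2.69.

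The next genes by p did not pass. On the higher side these were Phex (4.06, adjusted p 0.0761), Plagl1 (1.63), Exosc4 (1.20), Ppfia2 (2.36) and Pcdhb12 (1.21), with adjusted p up to 0.0958. Phex encodes an osteocyte endopeptidase whose loss causes hypophosphataemia, Plagl1 is an imprinted zinc finger factor, Exosc4 is a core subunit of the RNA exosome, Ppfia2 is a synaptic scaffold and Pcdhb12 a clustered protocadherin. Members of the protocadherin cluster are alike in sequence, so the Pcdhb12 value may include its relatives. On the lower side stood Trpa1 (-2.13), A4galt (-1.64), Slc25a24 (-1.45), Fabp5 (-1.81), Prkar2b (-2.09), Ttll7 (-1.66), Kif26b (-2.94), Scrn1 (-1.90), S100a4 (-1.69) and Tom1l1 (-1.16), with adjusted p from 0.0761 to 0.137. They include an irritant-gated ion channel (Trpa1), the synthase of globotriaosylceramide (A4galt), a mitochondrial ATP carrier (Slc25a24), a fatty acid binding protein (Fabp5) and a regulatory subunit of protein kinase A (Prkar2b). A930017M01Rik had a mean 2.40 higher (adjusted p 0.123).

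The Rb+/+ tumours gave 1 tumour per model that had no part in choosing these genes. Of the 12 higher genes 8 were also higher in the Rb+/+ shRNA OS tumour than in the Rb+/+ Cre:lox OS tumour, and of the 12 lower genes 10 were also lower. Over all genes, the direction was shared by 48.7% of those with a higher mean and 59.7% of those with a lower mean. Among the genes at an unadjusted p under 0.05 it was shared by 54.2% of the higher and 86.8% of the lower. The pair differs in site and in the Y-linked Eif2s3y (3.40 in shRNA OS, 6.55 in Cre:lox OS), and holds the array that stood apart. Genotype, site, sex-linked genes and array therefore cannot be told apart in it. The median difference of the pair was -0.06 over all genes but -0.32 over the 9969 genes above the median level, so brighter genes tend to read lower in its shRNA OS tumour whatever their list. Xlr differed in the pair by 2.57, Pax6 by 1.16, Sema5a by 1.46 and Map1a by -1.07.

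Of the 9 genes called, Gdpd3, Dkk1 and Adh7 went against the pair, as did Exosc4, Pcdhb12 and Trpa1 among the genes that did not pass. Gdpd3 read 6.13 in the shRNA OS Rb+/+ tumour and 6.45 in the Cre:lox OS Rb+/+ tumour, so that its high values were seen in the Rbfl/+ shRNA OS tumours and in neither Rb+/+ tumour. Dkk1 read 9.28 and 10.76, the Cre:lox OS Rb+/+ tumour standing above every Rbfl/+ Cre:lox OS tumour. Adh7 read 6.79 and 6.70, both near the shRNA OS level. The test of whether the model difference depended on Rb genotype called no gene (limma, smallest adjusted p 0.479), and 1819 genes (9.12%) had an unadjusted p under 0.05. With all 8 tumours fitted together, where 4 genes passed (0.0201%), Gdpd3 differed by 2.92 (adjusted p 0.312), Dkk1 by 2.05 (0.432) and Adh7 by -1.58 (0.262), a fit that shares the 6 tumours used here.

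Bone lineage genes are taken next, from the bone-forming osteoblast to the osteocyte, the cell that an osteoblast becomes once it is buried in matrix. Gene lists are described by counts beside those of all genes, where 6.63% separated the models upward and 6.01% downward. In bulk tumour RNA, more cells of a type and more RNA per cell cannot be told apart. Of 16 matrix and mineralisation genes measured, the mean was higher in shRNA OS for 12 and lower for 4, 4 separated the groups upward and 1 downward, and the median difference was 0.30 (0.14 without Cre:lox OS replicate 2). The abundant collagens did not separate the models: Col1a1 differed by -0.02 (SE 0.19) and Col1a2 by -0.01 (SE 0.17). None of the 16 passed over all genes.

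Vdr, the vitamin D receptor, read 10.36, 11.05 and 11.44 in shRNA OS against 9.15, 9.31 and 9.42 in Cre:lox OS (difference 1.66, SE 0.27, adjusted p 0.148). Smpd3, a sphingomyelinase needed for mineralisation, read 11.28, 10.86 and 11.75 against 9.97, 9.46 and 8.93 (1.85, SE 0.31, adjusted p 0.171). Both genes thus separated the models without passing the test. Postn, which encodes the matrix protein periostin, lay the other way at 11.36, 11.63 and 8.48 against 12.34, 12.60 and 13.13 (-2.20, SE 0.75), and its low mean in shRNA OS rested mostly on the humeral tumour. Among 14 osteoblast transcription factors 5 separated the groups upward and none downward (median 0.20): Dlx6 (1.55), Dlx5 (1.64), Dlx3 (0.90), Zfp521 (0.97) and Sp7 (0.71). Of the 14, 4 were higher and 10 lower in the shRNA OS tumour of the Rb+/+ pair (median -0.23). Dlx3, Dlx5 and Dlx6 are homeobox factors of bone and limb development, and Zfp521 is a zinc finger regulator of Runx2. Sp7, the master factor of the osteoblast, read 10.60, 10.37 and 10.63 against 10.19, 9.98 and 9.32 (adjusted p 0.435), and it is also the gene whose promoter is known to drive these models.

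Osteocyte genes held 1 of the 9 calls. Of 16 measured, 11 had higher and 5 lower means, 7 (43.8%) separated the groups upward and 3 (18.8%) downward, and Dkk1 passed. The median difference was 0.61, and it ranged from 0.49 to 0.82 as each tumour was left out. Phex read 11.08, 12.004 and 11.76 in shRNA OS against 6.52, 7.52 and 8.61 in Cre:lox OS. Even the highest of these Cre:lox OS tumours lay more than 2 units below the lowest shRNA OS tumour. In the Rb+/+ pair Phex read 11.71 in shRNA OS and 10.62 in Cre:lox OS, the latter above every Rbfl/+ Cre:lox OS tumour. Sost, which encodes the Wnt inhibitor sclerostin, read 7.16, 9.12 and 8.81 against 6.71, 6.90 and 6.82 (1.55, SE 0.46, adjusted p 0.366). The first shRNA OS tumour was only slightly above the Cre:lox OS range. Ptprz1, a receptor phosphatase, read 9.97, 11.26 and 11.07 against 9.87, 5.58 and 7.67 (3.06, SE 0.94, adjusted p 0.389), its size resting on the tibial Cre:lox OS tumours.

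Not all osteocyte genes followed. Pdpn, a marker of early osteocytes that other stromal cells also carry, read 8.56, 7.81 and 7.80 in shRNA OS against 9.16, 10.90 and 10.97 (-2.29, SE 0.48, adjusted p 0.242). The late markers were mixed. Dmp1, a matrix phosphoprotein, differed by 1.06 with overlapping groups, Mepe by 0.50, and Fgf23, the phosphate hormone, by 0.09 (SE 0.19). In the Rb+/+ pair the list's median difference was 0.10, with 9 members higher and 7 lower.

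**Figure D2:**
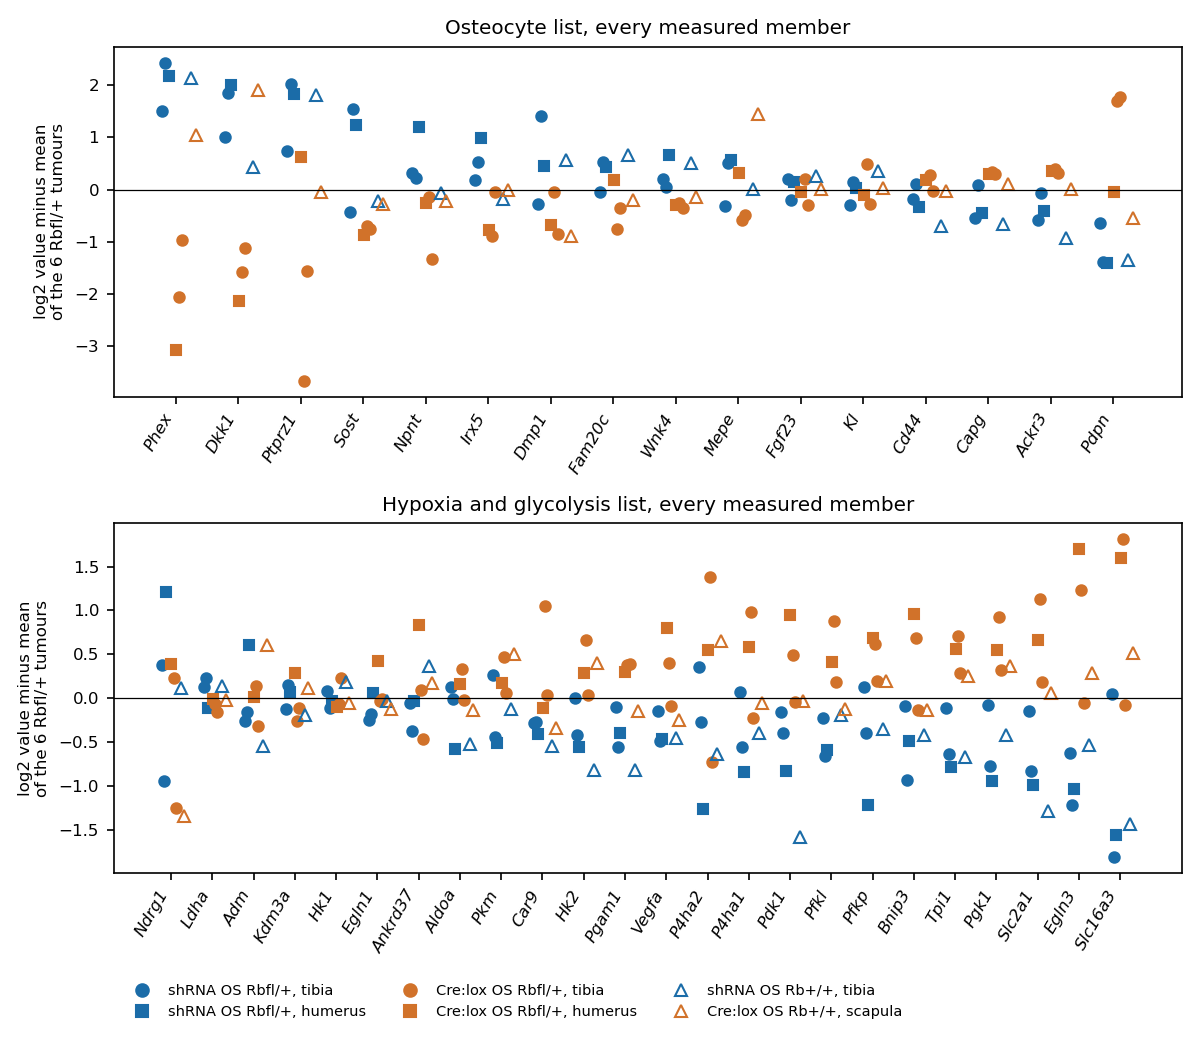
Each measured osteocyte gene (top) and hypoxia and glycolysis gene (bottom), ordered by model difference. The vertical axis is the log2 value minus the mean of the 6 Rbfl/+ tumours; circles are tibial, squares humeral and open triangles Rb+/+ tumours. In 7 osteocyte genes every filled blue point lies above every filled orange point, and in 11 hypoxia and glycolysis genes below.

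The hypoxia and glycolysis list leaned downward in shRNA OS. When oxygen is short, hypoxia-inducible factor binds short DNA elements, of which only the core letters ACGTG were searched here. It turns on genes for glucose uptake, glycolysis and vessel growth. Of 24 such genes measured, 20 had lower and 4 higher means, and 11 (45.8%) separated the groups downward against 6.01% of all genes. The median difference was -0.72, it was -0.52 in the tibial and -0.94 in the humeral tumours, and it ranged from -0.88 to -0.55 with each tumour left out. None passed over all genes, the smallest adjusted p being 0.242 for Tpi1.

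The promoter sequences of Pgk1, Egln3 and Slc2a1 are shown because these genes had wide separations and hold the core. Each run is the 250 bases before the transcription start from RefSeq (GRCm38.p6), with matches to ACGTG on either strand in capitals. Pgk1 lies at chrX:106186850-106187099 (plus strand), Egln3 at chr12:54203875-54204124 (minus strand) and Slc2a1 at chr4:119108495-119108744 (plus strand).
Pgk1: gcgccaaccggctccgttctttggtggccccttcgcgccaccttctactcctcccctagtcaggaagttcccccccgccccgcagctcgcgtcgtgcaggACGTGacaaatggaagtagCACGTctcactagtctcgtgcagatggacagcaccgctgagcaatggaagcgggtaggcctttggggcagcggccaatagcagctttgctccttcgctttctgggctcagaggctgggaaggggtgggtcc
Egln3: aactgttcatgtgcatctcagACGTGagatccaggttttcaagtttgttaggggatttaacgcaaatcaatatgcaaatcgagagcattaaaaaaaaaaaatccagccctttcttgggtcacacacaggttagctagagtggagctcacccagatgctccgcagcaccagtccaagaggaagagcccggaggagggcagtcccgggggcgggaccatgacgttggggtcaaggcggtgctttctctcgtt
Slc2a1: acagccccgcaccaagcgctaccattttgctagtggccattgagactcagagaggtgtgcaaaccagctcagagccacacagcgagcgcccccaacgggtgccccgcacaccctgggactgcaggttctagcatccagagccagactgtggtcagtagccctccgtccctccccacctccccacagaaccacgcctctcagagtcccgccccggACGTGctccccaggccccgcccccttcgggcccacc
In windows from 250 bases before to 50 after the start, the core was found in 13 of 23 list members with a promoter (56.5%) and in 21.7% of 15614 tested genes. The letters are short and do not show that a factor binds there. Tpi1, Pfkl, Pdk1, Vegfa and Pfkp held no match to ACGTG in this window, and other forms of the core were not searched.

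The group spans glucose entry and the steps of glycolysis. Slc2a1, the glucose transporter GLUT1, read 10.06, 9.37 and 9.22 in shRNA OS against 10.86, 11.33 and 10.38 in Cre:lox OS (-1.31, SE 0.30, adjusted p 0.266). Pgk1, phosphoglycerate kinase, read 11.40, 10.70 and 10.52 against 12.02, 12.40 and 11.80 (-1.20, SE 0.27, adjusted p 0.253). Tpi1, triosephosphate isomerase, read 11.08, 10.56 and 10.41 against 11.76, 11.91 and 11.49 (-1.03, SE 0.22). In all 3 genes the first shRNA OS tumour was the highest of its group and came nearest to the Cre:lox OS range. Hk2 (-0.65), Pfkl (-0.98), Pfkp and Pgam1 (-0.71), which encode further glycolytic enzymes, and Pdk1 (-0.93), a kinase that inhibits pyruvate dehydrogenase, also separated the groups downward. Ldha, which makes lactate, did not: it differed by 0.16 (SE 0.16).

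Among the sensors and signals of hypoxia, Egln3, a prolyl hydroxylase induced by low oxygen, read 8.25, 7.65 and 7.83 in shRNA OS against 10.57, 10.10 and 8.81 (-1.92, SE 0.42, adjusted p 0.250). Vegfa, the vessel growth factor, differed by -0.74 (SE 0.24) and Car9, a carbonic anhydrase, by -0.65, both with separate groups. Slc16a3, the lactate exporter MCT4, had a difference of -2.22 (SE 0.61), but the groups overlapped. Adm, Kdm3a and Ndrg1, which hypoxia also induces, had means 0.12, 0.06 and 0.43 higher, with overlapping groups. All 15 endothelial markers had higher means in shRNA OS (median 0.44), and 1, Cldn5, separated the groups, while their mean level overlapped, from 9.26 to 9.80 against 8.77 to 9.56. In the Rb+/+ pair 19 of the 24 hypoxia and glycolysis genes were lower in shRNA OS (median -0.47), and 12 of the 15 endothelial genes were also lower (median -0.29). Both medians stand beside -0.32 in the pair over all genes above the median level.

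Macrophage markers had lower means as well. Of 19, 18 had lower means in shRNA OS (median -0.91), and 1, the scavenger receptor gene Msr1, separated the groups. Their mean level was 10.30, 9.21 and 8.66 in shRNA OS against 9.74, 10.53 and 10.47 in Cre:lox OS, so that the groups overlapped through the first tumour of each model. The median was -1.56 without shRNA OS replicate 1 and -0.54 without shRNA OS replicate 3. No array value is at 0, so no marker can be called absent. The part of these cells in the hypoxia and glycolysis values was not tested. MHC class II genes, which present antigen on macrophages and B cells, lay the other way: all 7 had higher means in shRNA OS (median 0.90) and 1, Cd74, separated the groups. Without shRNA OS replicate 1 this median was 0.28, and without Cre:lox OS replicate 1 it was 0.26.

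Most fibroblast genes had lower means in shRNA OS too. Of 23 measured, 18 had lower and 5 higher means, 6 (26.1%) separated the groups downward and none upward, and the median was -0.53. It ranged from -1.03 without Cre:lox OS replicate 1 to -0.24 without Cre:lox OS replicate 3. S100a4, also called fibroblast-specific protein, read 8.58, 8.17 and 8.87 against 10.00, 10.64 and 10.04 (-1.69, SE 0.25, adjusted p 0.116). Col3a1, a collagen of loose connective tissue, read 9.85, 8.48 and 8.22 against 9.98, 10.99 and 11.60 (-2.01, SE 0.52, adjusted p 0.297). Its first shRNA OS tumour lay within a small step of the lowest Cre:lox OS tumour. Fbln1 (-1.71), Col6a3 (-1.36), Fbln2 (-1.20) and Fn1 (-0.31) completed the 6. Among proteases and their inhibitors, 2 of 21 separated the groups upward and 4 downward: Mmp16 differed by 1.27, Mmp19 by -1.27 and Timp1, a metalloproteinase inhibitor, by -1.41.

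Heat shock chaperones, which refold damaged proteins, separated the groups downward in 4 of 16 genes and upward in none, with a median of -0.21. The median was -0.26 in the tibial and 0.11 in the humeral tumours, so that the sites went opposite ways. The promoters of Hspa1a and Hspb1 are shown because both hold the heat shock element, spelled GAANNTTC, in capitals. These are again the 250 bases before the start from RefSeq (GRCm38.p6), for Hspa1a at chr17:34972157-34972406 (minus strand) and for Hspb1 at chr5:135887669-135887918 (plus strand).
Hspa1a: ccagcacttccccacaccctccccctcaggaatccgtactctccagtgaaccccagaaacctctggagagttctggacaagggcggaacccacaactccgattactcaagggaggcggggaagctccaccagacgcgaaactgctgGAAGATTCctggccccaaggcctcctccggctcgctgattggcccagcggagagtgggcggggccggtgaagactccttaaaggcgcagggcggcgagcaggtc
Hspb1: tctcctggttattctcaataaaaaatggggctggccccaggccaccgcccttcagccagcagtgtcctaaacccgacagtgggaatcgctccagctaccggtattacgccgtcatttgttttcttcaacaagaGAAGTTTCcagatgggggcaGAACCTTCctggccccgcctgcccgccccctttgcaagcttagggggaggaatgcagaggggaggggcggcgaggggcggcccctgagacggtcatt
With the 50 bases after the start included, the element was found in 8 of 13 chaperone genes with a promoter (61.5%) and in 6.78% of tested genes. Hspa1a, the inducible Hsp70, read 8.06, 7.83 and 8.24 in shRNA OS against 10.36, 10.38 and 8.35 in Cre:lox OS (-1.65, SE 0.51, adjusted p 0.389). The third Cre:lox OS tumour was close to the shRNA OS level. Hspb1, a small heat shock protein, read 9.98, 8.88 and 9.29 against 10.04, 10.72 and 10.25 (-0.95, SE 0.30). Hspa4l (-0.95), which held no match, and Hsp90aa1 (-0.60) were the other two.

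No member of the mitosis, E2F target or p53 target lists passed within the Rbfl/+ tumours. Cenpv, the centromere protein that passed, is not on these lists. Of 24 mitosis genes none separated the groups, 11 had higher and 13 lower means, and the median was -0.07. This median was 0.34 in the tibial tumours and -0.86 between the humeral tumours, so that the sites went opposite ways. Mki67, the proliferation marker, read 11.22, 10.30 and 10.49 against 10.79, 10.33 and 10.53 (0.12, SE 0.26). Of 29 E2F targets and DNA replication genes 9 had higher and 20 lower means (median -0.12) and 4 separated the groups downward, led by Pola1, a DNA polymerase subunit (-0.58, adjusted p 0.407). In the Rb+/+ pair all 24 mitosis genes and all 29 E2F targets were lower in the shRNA OS tumour, with medians of -0.90 and -0.89 beside -0.32 over genes above the median level.

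Skeletal muscle genes varied between single tumours. In the Rbfl/+ tumours 7 of 19 had higher and 12 lower means, the median was -0.05 and the mean level was 8.27, 10.10 and 7.71 in shRNA OS against 7.68, 10.04 and 8.67. The second tumour of each model thus held the most. In the Rb+/+ pair all 19 were lower in shRNA OS, by a median of -2.74. Of 27 p53 target genes 14 had higher and 13 lower means (median 0.00). Upward separation was seen in 6 (22.2%, against 6.63% of all genes), among them Mdm2, Trp53inp1 (0.58), Rrm2b (0.67) and Aen (0.38). These take part in the response to damage. Rrm2b also lies between Fbxo43 and Rims2 on chromosome 15, a stretch where 14 of 25 genes, Rrm2b among them, were higher without overlap. Mdm2 lies on chromosome 10, where 11.9% of all genes were higher without overlap. The share of p53 targets was not compared within chromosomes. Downward separation was seen in 1, Gadd45a (-0.55). None of the 27 passed, and in the Rb+/+ pair 22 of them were lower in shRNA OS.

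Wnt signalling genes went both ways. Of 22 targets and antagonists 11 had higher and 11 lower means (median -0.01). Upward separation was seen in 3 (13.6%, against 6.63% of all genes) and downward in 2 (9.09%, against 6.01%). The 3 higher ones, Dkk1, Sost and Wif1, all encode secreted antagonists of Wnt. Dkk1 and Sost are the same genes already counted among the osteocyte genes, and any other antagonist on the list overlapped between the groups. Wif1 read 10.82, 10.76 and 10.59 against 6.55, 10.29 and 8.88 (2.15, SE 0.80), with the Cre:lox OS tumours spread over more than 3 units. The 2 lower ones were Lef1, a transcription factor of the pathway, at 8.08, 7.19 and 6.85 against 8.29, 8.73 and 9.06 (-1.32, SE 0.34, adjusted p 0.297), and Lgr5, a receptor and target (-0.45). In the Rb+/+ pair Wif1 differed by 1.47 and Lef1 by 0.37. Fosl1, an AP-1 subunit, was 7.05, 6.16 and 6.45 against 7.94, 8.09 and 8.54 (-1.63, adjusted p 0.148), while the AP-1 and immediate early list as a whole had a median of -0.03.

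**Figure D3:**
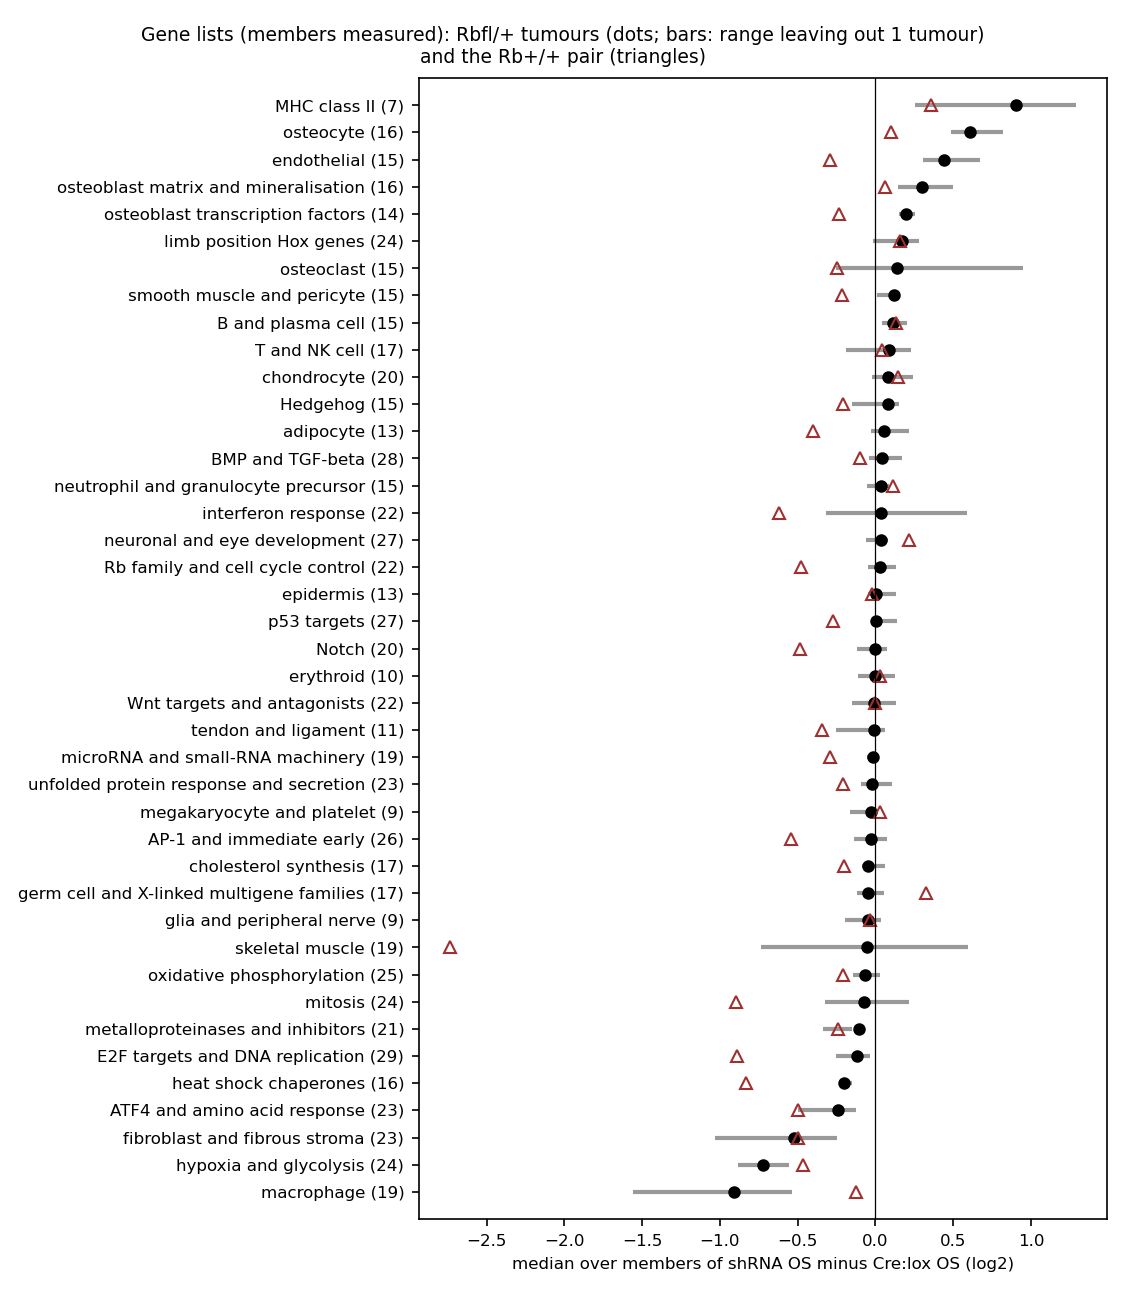
Median over each gene list of the log2 difference, shRNA OS minus Cre:lox OS (horizontal axis), with the number of members measured (sex-linked genes left out). Black dots are the 6 Rbfl/+ tumours, grey bars the range with each tumour left out, and open triangles the Rb+/+ pair. Skeletal muscle stands at -0.05 in the Rbfl/+ tumours and -2.74 in the pair. Hypoxia and glycolysis lies below 0 in both (-0.72 and -0.47), where the pair stands at -0.32 over all genes above the median level.

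The genes that separated the models made up different shares of the genes of each chromosome, a spread that was not tested. On chromosome 7, 313 of 1738 genes (18.0%) were higher in all 3 shRNA OS tumours and 27 (1.55%) lower, against 6.63% and 6.01% of all genes. Chromosomes 15 (12.2%), 10 (11.9%) and 9 (11.2%) followed on the higher side, and chromosomes 16 (10.9%), 3 (10.4%) and X (10.2%) led on the lower side. Among the 695 genes of chromosome 7 above the median level, 35.5% were higher without overlap. Their median departure from the median of the 6 tumours was 0.21, 0.08 and 0.12 in shRNA OS and -0.09, -0.25 and -0.06 in Cre:lox OS. As these departures are relative to the same 6 tumours, a rise in shRNA OS and a fall in Cre:lox OS cannot be told apart. The median difference of these 695 genes was 0.31. It was -0.01 in the Rb+/+ pair, where genes above the median level on all chromosomes stood at -0.32 and no other chromosome stood higher. Chromosomes 10 (-0.02) and 8 (-0.03) stood close to it in the pair, and in the Rbfl/+ tumours they differed by 0.11 and 0.02. Gdpd3 lies on chromosome 7 and Exosc4 on chromosome 15.

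**Figure D4:**
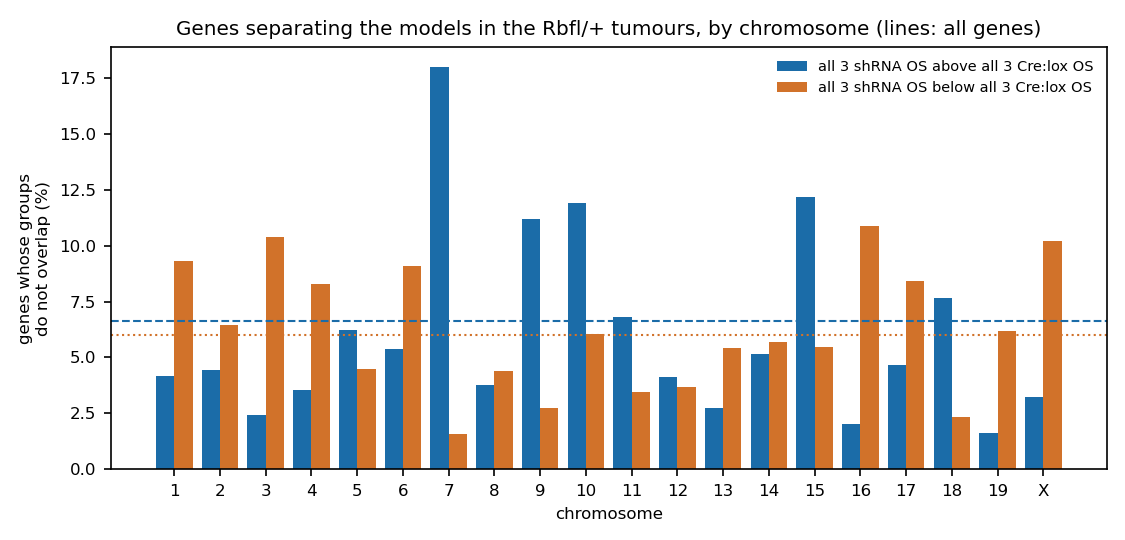
Percentage of measured genes on each chromosome (horizontal axis) whose 3 shRNA OS Rbfl/+ tumours all lay above (blue) or all below (orange) the 3 Cre:lox OS Rbfl/+ tumours. The dashed blue and dotted orange lines mark all genes, 6.63% and 6.01%; chromosome 7 reaches 18.0% upward and 1.55% downward.

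Genes that lie next to each other were examined next. Windows of 25 neighbouring measured genes were ranked by the number separating the models, so these counts describe the windows chosen and carry no test. From Nup62 to Pih1d1 on chromosome 7, 19 of 25 genes were higher without overlap and 24 had higher means (median 0.53). They include Irf3, an interferon regulator (0.64), Prmt1, an arginine methyltransferase (0.73), and Akt1s1, a subunit of the mTORC1 complex (0.62). They also include the small nucleolar RNAs Snord33, Snord35a and Snord35b, which lie inside a host gene and whose probes may read it. The second shRNA OS tumour departed most, at 0.53 against 0.15 and 0.17 in the other two, and it was also the highest in the 3 further windows listed on this chromosome.

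From Gpihbp1 to Parp10 on chromosome 15, 17 of 25 genes were higher without overlap and all 25 had higher means (median 0.62). Examples are Scrib, a cell polarity protein (0.96), Puf60, a splicing factor (0.81), and Fam83h (1.85). Here the humeral shRNA OS tumour departed most, at 0.60 against 0.17 and 0.18. In the Rb+/+ pair this window had a median difference of -0.32, and that from Nup62 to Pih1d1 -0.01. A second window on chromosome 15, from Fbxo43 to Rims2, had 14 genes higher without overlap and differed by 0.43 in the pair. The lower window with the most genes ran from Xdh to Qpct on chromosome 17, where 11 of 25 were lower without overlap (median -0.32, pair -0.34). It holds Qpct, glutaminyl cyclase, at -3.42.

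**Figure D5:**
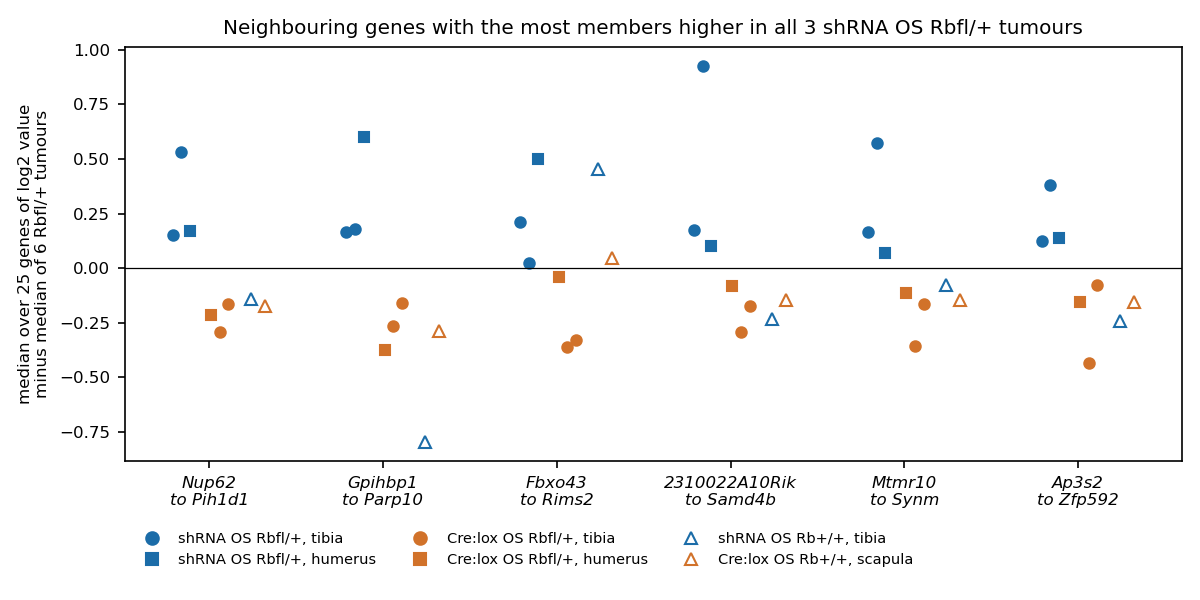
Median departure of 25 neighbouring genes from the median of the 6 Rbfl/+ tumours (log2, vertical axis) in the 6 windows with the most genes higher in all 3 shRNA OS Rbfl/+ tumours. Filled points are Rbfl/+ tumours and open triangles Rb+/+ tumours; from Nup62 to Pih1d1 the shRNA OS tumours stand at 0.15, 0.53 and 0.17 and the Cre:lox OS tumours at -0.22, -0.29 and -0.17.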

How the data were processed

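Tumour RNA was purified with Trizol and RNeasy columns, per the labels' protocols. The deposited values are log2 expression that the authors computed with RMA, and mm9 is named as the build, both per the submitters' processing notes (the version is not given in the sources used here). Groups came from the model and Rb genotype in the labels, which give each tumour its own number. They give no batch and no sex, and do not say whether RNA of several animals was pooled.

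Of 35556 probe sets, 21789 had 1 gene symbol in the platform annotation and were used, 1621 had several and 12146 none. A gene was read by its probe set of highest mean, which gave 19938 genes. Gene IDs of 21698 of these probe sets were found in a RefSeq gene table of build GRCm38.p6, which, not being mm9, served for names, chromosomes and neighbours only.

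Models were compared in the 6 Rbfl/+ tumours with limma 3.58.1 in R 4.3.3 (lmFit, eBayes, 2-sided, Benjamini-Hochberg over all genes, threshold 0.05), with no covariate and no filter. Dependence on Rb genotype was tested as an interaction over all 8 tumours, with the spread taken from the Rbfl/+ tumours, as each Rb+/+ group is 1 tumour. On data simulated for the 6-tumour comparison with 19938 genes, a 2-fold change was recovered in 32 of 100 genes and a 4-fold change in 76 of 100, with 3 false calls. Both sets of 100 genes were changed in the same simulated data, and noise was drawn independently for each gene. Recovery in the tumours, where the number of changed genes is unknown, may therefore differ.

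Genes named were those past the threshold, filled to 12 per direction by smallest p, the 4 called with all 8 tumours, Rb1, Mdm2, Sp7 and the leading members of each list. Symbols ending in Rik and the like were counted, not named, A930017M01Rik excepted (1 such gene fell in the p range of the higher genes). Other list members and window genes were named after their values were seen. The members and the 42 gene lists were chosen with earlier results of these data known, so lists carry no test. Alternatives were median centring, quantile normalization, a floor on gene level, other probe set rules, eBayes with trend and robust, array weights, site as a covariate, all 8 tumours, only tibial tumours, 2 further thresholds, and each tumour left out.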

Additional observations from a re-analysis of the deposited data

Results flagged for a closer look

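For 3 genes the 3 shRNA OS and 3 Cre:lox OS Rbfl/+ tumours differed one way and the Rb+/+ pair the other. The model difference of Gdpd3 in the Rbfl/+ tumours exceeded that of the pair by 4.32 on the log2 scale, and that of Dkk1 by 4.71. For Adh7 the corresponding value was -2.23. In the limma test of this dependence on Rb genotype none passed (adjusted p 0.479 for each, smallest unadjusted p 0.000101 for Gdpd3). Each Rb+/+ group is 1 tumour, the pair differs in site and in the Y-linked Eif2s3y, and one of its arrays stood apart. Genotype, site, sex-linked genes and array therefore cannot be told apart.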

How the results depend on the processing

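The count of 9 genes (7 higher, 2 lower) was 15 with median centring (9 higher, 6 lower), 19 with site as a covariate, 5 with all 8 tumours and terms for model and Rb genotype, 4 with all 8 tumours and the model alone, and 22 and 61 at adjusted p thresholds of 0.1 and 0.2. With only the tibial tumours it was again 9, of which 2 were the same genes. Leaving out each tumour gave 0 to 40 genes. The 2519 genes without overlap became 1084 with all 8 tumours in either fit, 6158 with only the tibial tumours, and 3678 to 5098 with each tumour left out, where fewer values per group must separate. The count at unadjusted p under 0.05, the 21 of 42 lists with a median above 0, and the absence of genes whose difference depended on Rb genotype stayed within 1.5-fold under every alternative run for them. Of the named genes' alternative values 62 lost and 27 gained the threshold, and 2 changed sign, neither passing: Rb1 ranged from -0.273 to 0.0321 with each tumour left out, the latter without Cre:lox OS replicate 3, and Ndc80 was 0.0576 with only the tibial tumours. Of list medians 714 stayed within the spread inside a model and 40 did not. No paired analysis was possible because the labels give each tumour its own number and the replicate numbers follow accession order. With 3 tumours per group and unknown signal over background, differences of low genes are the least certain, and the cause of changes under centring or covariates was not tested.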

Other observations

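Further lists, of cell types and of pathways, were also read in the 6 Rbfl/+ tumours. Osteoclast markers, whose cells resorb bone, had a mean level of 9.16, 11.21 and 10.79 in shRNA OS against 10.97, 9.88 and 9.72 in Cre:lox OS, and 1 of 15, Ckb, separated the groups. Interferon response genes stood highest in the third Cre:lox OS tumour (mean level 9.55 against 7.75 and 8.09), with 9.04, 8.32 and 8.20 in shRNA OS. Of 24 Hox genes of limb position 17 had higher means in shRNA OS (median 0.17), and none separated the groups. Of 23 genes of the ATF4 and amino acid response 19 had lower means (median -0.24), and Slc1a5, a glutamine transporter, alone separated the groups, upward (0.63, SE 0.19).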
